A study of Homo sapiens with 10 samples.

Results

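LOX, LOXL1, LOXL2, LOXL3, LOXL4, PLOD1, PLOD2, PLOD3, P4HA1 and P4HA2 encode the enzymes that hydroxylate and crosslink collagen, and were chosen by name as the lysyl oxidase family, the lysyl hydroxylase family and the catalytic subunits P4HA1 and P4HA2 of the collagen prolyl 4-hydroxylases. All 10 were found among the 61533 genes counted. The RNA came from T24, an established human bladder cancer cell line, and from T24R2, a resistant line obtained by exposing T24 repeatedly to cisplatin, a platinum drug that crosslinks DNA. There were 5 libraries of each line, collected at day 3 of culture, and the question of the comparison was which transcripts differ between drug-sensitive and drug-resistant cells. The sample labels give both lines the same RPMI medium with fetal bovine serum and antibiotics, while the methods keep T24R2 in cisplatin. The sources used here do not settle whether the drug was present at harvest, so resistance and drug exposure cannot be told apart. T24R2 is a single derived line, and nothing states that the 5 libraries of a line came from separate cultures, so the p-values measure the spread between libraries, which may be technical.

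Newly made collagen is modified in the endoplasmic reticulum before it is secreted. Prolyl 4-hydroxylases act on proline and make the collagen helix stable at body temperature, and lysyl hydroxylases act on lysine and so prepare the sites of sugar attachment and of crosslinks. Both families need oxygen, iron and ascorbate. Outside the cell, the copper-dependent lysyl oxidases convert lysine and hydroxylysine of collagen, and lysine of elastin, to aldehydes that react to form crosslinks. Several of these genes are textbook targets of the hypoxia-inducible factors (HIF), which bind DNA at a core that contains ACGTG or GCGTG.

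The 250 bases before the RefSeq transcript starts (GRCh38.p14) were searched for ACGTG on both strands, where a match on the opposite strand reads CACGT. The table of starts matched 9 of the 10 genes, with 12 windows in all. A match was found in 5 of the 12 windows, from 3 genes, LOX, PLOD2 and P4HA1. Of the 35116 windows of all genes, 18.5% held at least 1. LOX has overlapping windows that hold the same match, so its windows are not independent. CACGTG, the E-box, contains ACGTG and is counted within it, and 6.34% of all windows held that longer motif. The stretches are shown because they are the only places in these windows where the motif occurs. Each reads 5′ to 3′ on the strand of its gene, which is the minus strand, with the matched letters in capitals.
LOX, chr5:122078287-122078311, 42 bases before a start: aactttgcaaACGTGccagaaagtt
LOX, chr5:122078343-122078367, 98 bases before it: caatcgcattACGTGaacaaatagc
LOX, chr5:122078361-122078385, 116 bases before it: gtccgccttgCACGTttccaatcgc
LOX, chr5:122078430-122078454, 185 bases before it: tccctgtgcaACGTGtctgggggga
LOX, chr5:122077277-122077301, 68 bases before another start: tggcttctcgACGTGgctgcctggg
PLOD2, chr3:146161316-146161340, 146 bases before its start: aacagtccagACGTGgggcccagga
PLOD2, chr3:146161370-146161394, 200 bases before it: tgagcctccaCACGTagccgcaggc
P4HA1, chr10:73096938-73096962, 86 bases before its start: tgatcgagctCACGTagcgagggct
The windows of LOXL1, LOXL3, LOXL4, PLOD1, PLOD3 and P4HA2 did not hold ACGTG. The other form of the core, GCGTG, was searched in the same way. It was found in 5 of the 12 windows, from 4 genes, LOX, LOXL3, PLOD1 and PLOD2, and in 32.2% of all windows. The windows follow RefSeq starts, and the genes as annotated in the count tables begin further upstream in several cases. Apart from the LOX stretch 185 bases before its start, every stretch shown lies within the annotated bounds of its gene, and all 250 bases of the PLOD2 window are annotated as UTR. A match is a description of the letters and not a bound site.

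Total counts ranged from 9257843 to 10247941 in T24 and from 9591379 to 10840954 in T24R2. Of the 61533 genes, 16181 passed a filter on low counts, and edgeR's quasi-likelihood test called 8309 of them (51.4%) by the rule of a Benjamini-Hochberg adjusted p under 0.05 with a log2 fold change beyond 0.5 in either direction. Of the tested genes, 26.5% were lower in T24R2 (4282) and 24.9% were higher (4027); a call alone was therefore common. Without scaling beyond the library total, 3431 were lower and 5206 higher, and the median log2 fold change of all tested genes moved from 0.01 to 0.18. Levels below are CPM, counts scaled to a common library total, computed with library sizes scaled by TMM, a method that equalizes the bulk of genes between libraries. Folds are T24R2 minus T24 on the log2 scale.

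Of the 10 genes, 9 passed the low-count filter and 6 of these were called lower in T24R2, which is 66.7% of the tested ones against the 26.5% of all tested genes. They were both prolyl 4-hydroxylase subunits, PLOD1, PLOD2, LOX and LOXL1, and for each the highest T24R2 library stayed below the lowest T24 library. Of all tested genes, 61.2% had libraries that did not overlap, 31.4% with T24R2 lower and 29.8% with T24R2 higher. All 6 fell by more than 1 on the log2 scale, as did 14.2% of all tested genes. The 10 genes were chosen with earlier results of these data known, so these shares are a description and not a test. The median log2 fold change of the 9 genes was -2.09. None was called higher by edgeR (0 genes, and 0 at an unadjusted p under 0.05), by DESeq2 (0) or by limma-voom (0). PLOD3, LOXL2 and LOXL3 were tested and not called, and LOXL4 was too low to be tested. The exact two-sided permutation test of CPM gave p = 0.00794 for each of the 6, the smallest value that 5 against 5 libraries can give. In bulk RNA, fewer cells that express a gene and less of its RNA per cell cannot be told apart.

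**Figure D1:**
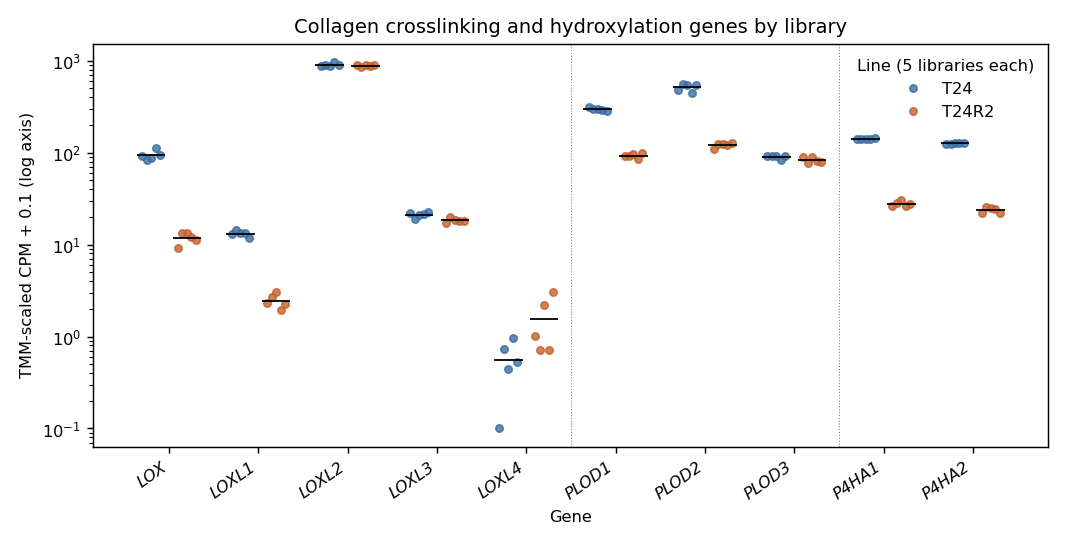
TMM-scaled CPM, with 0.1 added, on a log axis for each of the 10 genes, with 1 point per library (5 of T24 and 5 of T24R2). P4HA1, P4HA2, PLOD1, PLOD2, LOX and LOXL1 form separate groups with T24R2 lower, whereas the points of PLOD3, LOXL2, LOXL3 and LOXL4 overlap between the lines.

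Both catalytic subunits of the collagen prolyl 4-hydroxylases fell, and by like amounts. P4HA1 (ENSG00000122884.13, chr10:73007217-73096974 in hg38, minus strand) encodes the subunit that is the main isoform in most cells. It stood at 139, 140, 140, 141 and 144 CPM in T24 replicates 1 to 5 and at 25.9, 28.3, 30.1, 26.1 and 27.5 CPM in T24R2. The groups were far apart, with a mean of 141 ± 1.94 CPM (SD, n = 5) in T24 and 27.6 ± 1.71 CPM (SD, n = 5) in T24R2. The log2 fold change was -2.35 (SE 0.06, edgeR adjusted p = 1.46e-31), which leaves 19.6% of the T24 level.

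P4HA2 (ENSG00000072682.20, chr5:132190147-132295315, minus strand) encodes an alternative catalytic subunit. Its T24 libraries held 124, 125, 127, 128 and 128 CPM, and its T24R2 libraries 22.1, 25.2, 24.8, 24.4 and 21.8 CPM. Again no library of one line reached the range of the other. The log2 fold change was -2.42 (SE 0.06, edgeR adjusted p = 2.85e-31), which leaves 18.7% of the T24 level. The 95% intervals of the 2 subunits overlapped, from -2.47 to -2.24 for P4HA1 and from -2.53 to -2.30 for P4HA2. Per kb of exon, P4HA1 made up 78.5% ± 0.184 of the 2 subunits in T24 and 79.2% ± 1.08 in T24R2 (SD, n = 5), so the make-up of the pair stayed within 1 percentage point. A further subunit gene, P4HA3, which was not among the 10, was low in both lines and fell by 0.69 on the log2 scale (edgeR adjusted p = 5.38e-05).

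The noncatalytic subunit of the enzyme is P4HB, protein disulfide isomerase, which also folds many other secreted proteins. P4HB fell from 1406 ± 29.6 to 420 ± 21.7 CPM (SD, n = 5), a log2 fold change of -1.74 (edgeR adjusted p = 1.7e-31). Summed per kb of exon, P4HA1 and P4HA2 together were 46.0% ± 1.51 of P4HB in T24 and 29.9% ± 2.11 in T24R2. These percentages ranged from 44.4 to 47.9 in T24 and from 28.2 to 33.5 in T24R2, so they did not overlap. P4HA1 and P4HA2 together thus lay lower against their partner in the resistant line, with P4HA3 left out of the sum.

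The lysyl hydroxylases did not move as a group. PLOD1 (ENSG00000083444.17, chr1:11934205-11975538, plus strand) encodes lysyl hydroxylase 1, which acts on lysines within the collagen helix. PLOD1 read 313, 295, 297, 293 and 287 CPM in T24 and 91.8, 91.1, 96.9, 85.2 and 98.6 CPM in T24R2. Every T24 library was above every T24R2 library, and the log2 fold change was -1.68 (SE 0.05, edgeR adjusted p = 4.49e-29), the smallest of the 6 called falls.

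PLOD2 (ENSG00000152952.12, chr3:146069440-146163653, minus strand) encodes lysyl hydroxylase 2, which acts on the lysines of the telopeptides outside the helix and so favours the stable hydroxylysine-derived crosslinks. T24 libraries held 477, 554, 541, 450 and 547 CPM, and T24R2 libraries 109, 123, 124, 122 and 127 CPM. Its T24 values spread more widely than those of PLOD1 but lay well above all T24R2 values. The log2 fold change was -2.09 (SE 0.05, edgeR adjusted p = 1.79e-30), and its interval from -2.20 to -1.98 did not meet that of PLOD1, from -1.78 to -1.58.

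PLOD3 (ENSG00000106397.12, chr7:101205977-101218420, minus strand) encodes lysyl hydroxylase 3, which also transfers sugars to hydroxylysine. Its values were 91.5, 91.4, 91.9, 82.3 and 92.5 CPM in T24 and 90.4, 77.1, 90.5, 80.3 and 79.3 CPM in T24R2. The lines overlapped. The log2 fold change was -0.11 (SE 0.06, 95% interval -0.22 to 0.01, edgeR adjusted p = 0.0822), and without scaling beyond the library total it was 0.057. Because PLOD1 and PLOD2 fell and PLOD3 was not called, the share of PLOD3 in the summed lysyl hydroxylase RNA per kb of exon went from 11.4% ± 0.218 to 30.7% ± 2.06. The share of PLOD2 went from 48.3% ± 2.49 to 32.9% ± 1.89 and that of PLOD1 from 40.3% ± 2.40 to 36.3% ± 1.09 (SD, n = 5). Summed over the 3 genes, T24R2 kept 34.6% of the T24 level.

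**Figure D2:**
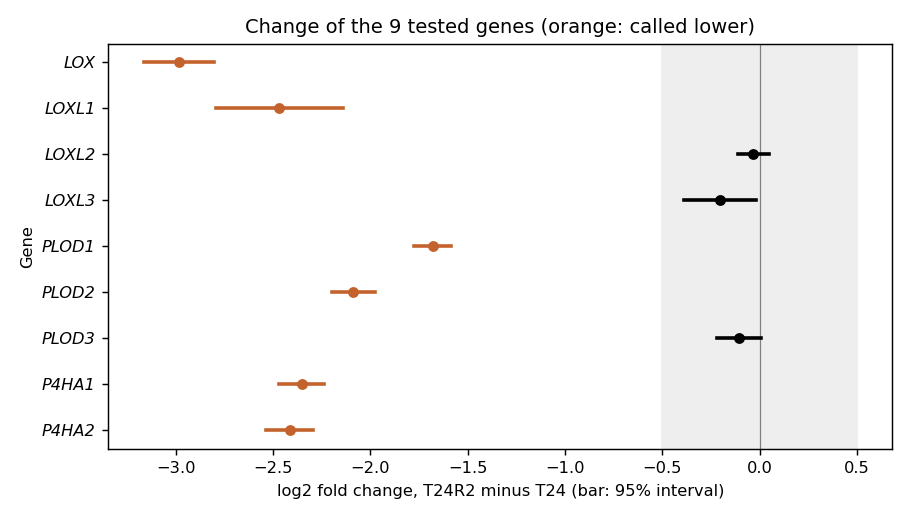
Log2 fold change of T24R2 minus T24 for the 9 tested genes, with bars for the 95% interval from edgeR and a grey band for absolute values up to 0.5. LOX lies lowest at -2.98 and PLOD1 is the highest of the 6 called genes at -1.68, while PLOD3, LOXL3 and LOXL2 lie inside the band.

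Among the lysyl oxidases, LOX fell most of all 10 genes. LOX (ENSG00000113083.15, chr5:122063195-122078413, minus strand) encodes the founding member, secreted as a proenzyme and cleaved outside the cell. It was measured at 91.9, 82.6, 87.2, 113 and 93.0 CPM in T24 and at 9.15, 13.4, 13.4, 12.1 and 11.0 CPM in T24R2. The lowest T24 library stood far above the highest T24R2 library. The mean level was 7.93 times higher in T24, a log2 fold change of -2.98 (SE 0.09, edgeR adjusted p = 2.15e-28).

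LOXL1 (ENSG00000129038.16, chr15:73925989-73952137, plus strand) encodes a relative known for its part in elastic fibre upkeep. The T24 libraries gave 12.8, 14.2, 13.3, 13.4 and 11.6 CPM, and the T24R2 libraries 2.20, 2.59, 2.97, 1.87 and 2.16 CPM. This low gene was nonetheless separated in every library. Its log2 fold change was -2.47 (SE 0.16, edgeR adjusted p = 5.12e-17), with the widest interval of the called genes, from -2.79 to -2.14.

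LOXL2 (ENSG00000134013.16, chr8:23296897-23425328, minus strand) encodes an oxidase that carries scavenger receptor domains, as do LOXL3 and LOXL4, and is known to act on collagen IV. It read 882, 889, 882, 959 and 892 CPM in T24 and 900, 852, 886, 864 and 903 CPM in T24R2. The lines overlapped, and T24 replicate 4 was the highest library. The log2 fold change was -0.03 (SE 0.04, edgeR adjusted p = 0.474), with an interval from -0.11 to 0.05, and it took a positive sign, 0.13, without scaling beyond the library total and 0.042 with upper-quartile scaling.

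LOXL3 (ENSG00000115318.12, chr2:74532258-74555690, minus strand) was at 22.0, 18.9, 20.6, 21.2 and 22.3 CPM in T24 and at 17.1, 19.8, 18.6, 17.9 and 17.8 CPM in T24R2. T24 replicate 2 lay within the T24R2 range. Its log2 fold change of -0.20 (SE 0.09, edgeR adjusted p = 0.0434) was under the fold needed for a call, and 18.3% of its exon bases are shared with HTRA2 and DOK1 on the opposite strand. LOXL4 (ENSG00000138131.4, chr10:98247690-98268194, minus strand) had 0, 6, 3, 8 and 4 counts in T24 and 10, 7, 22, 7 and 30 counts in T24R2. These few counts overlapped between the lines (exact two-sided permutation test of CPM, p = 0.0556, n = 5 each). Among the alternatives run, LOXL4 was called higher where no count filter was applied, with a log2 fold change of 1.62 (SE 0.46, edgeR adjusted p = 0.00124).

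Counts were assigned by strand, while the library kit named is not described as strand-specific, and reads of overlapping genes could not be separated. Of 89 antisense genes lying at least 90% under the exons of a well-covered gene on the opposite strand, the median had 2.15 times that gene's counts per kb. PLOD1 and PLOD2 share no exon base with another gene on the opposite strand. The shared part was 2.47% of exon bases for LOX (with SRFBP1), 9.21% for LOXL1 (LOXL1-AS1), 5.41% for P4HA2 (P4HA2-AS1) and 1.52% for P4HA1. With the estimated counts of the opposite genes taken off, the same 6 genes were called lower, at -3.05 for LOX, -2.67 for LOXL1, -2.35 for P4HA1, -2.40 for P4HA2, -2.09 for PLOD2 and -1.68 for PLOD1. LOXL3 was then at -0.13 (edgeR adjusted p = 0.367). PLOD3, which shares 1.80% of its exon bases with ZNHIT1, was also at -0.13 (adjusted p = 0.0412), past the p limit but under the fold needed for a call.

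LOXL2 carried most of the lysyl oxidase RNA in both lines. Per kb of exon it made up 85.7% ± 0.675 of the family in T24 and 95.3% ± 0.450 in T24R2, while LOX went from 9.50% ± 0.774 to 1.37% ± 0.226 (SD, n = 5). The family sum was therefore 87.9% of its T24 value in T24R2, but 28.7% when LOXL2 was left out. Within T24 the order of the 10 genes by CPM per kb of exon began with LOXL2 at 151, followed by PLOD2 at 67.0 and PLOD1 at 55.8, whose ranges overlapped, and P4HA1 at 45.6. LOX at 16.7 and PLOD3 at 15.9 also overlapped, and P4HA2 at 12.5, LOXL3 at 4.65, LOXL1 at 3.60 and LOXL4 at 0.126 came last. In T24R2 LOXL2 stood at 147, and PLOD1 at 17.4, PLOD2 at 15.8 and PLOD3 at 14.7 followed with overlapping ranges between neighbours. P4HA1 was then at 8.92, LOXL3 at 4.04, P4HA2 at 2.34 and LOX at 2.11, the last pair overlapping, before LOXL1 at 0.648 and LOXL4 at 0.400, which overlapped as well. The order depends on the length used. With the longest coding transcript in place of all exon bases, LOX came after PLOD3 (31.9) and P4HA2 (27.8) in T24 at 18.4, and in T24R2 PLOD3 passed PLOD2 and P4HA2 passed LOXL3.

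**Figure D3:**
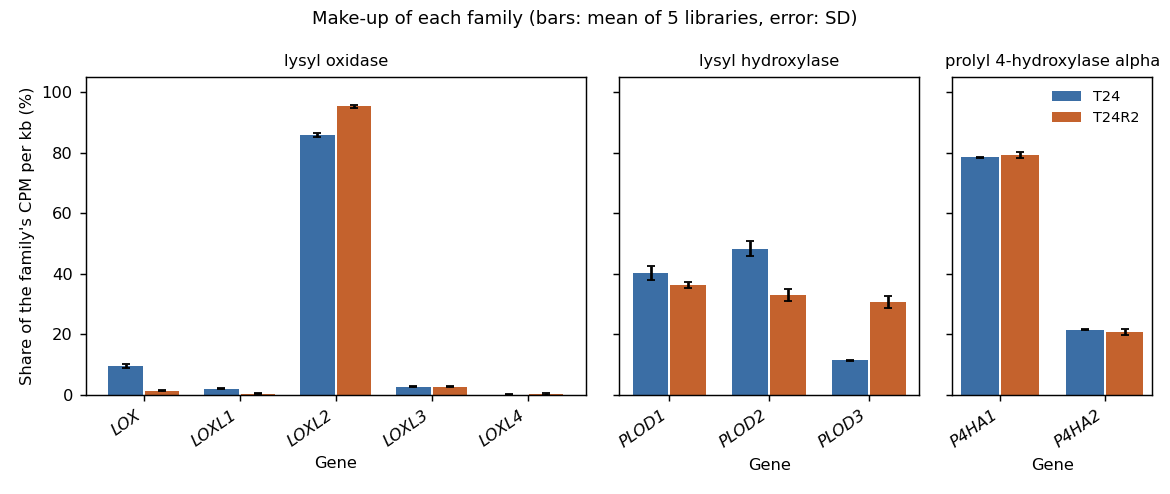
Share of each gene in the summed CPM per kb of exon of its family, in percent, for the lysyl oxidases, lysyl hydroxylases and prolyl 4-hydroxylase subunits. Bars show the mean and error lines the SD of the 5 libraries of each line. The share of PLOD3 rose from 11.4% to 30.7%, LOXL2 held 85.7% and 95.3%, and the split of P4HA1 and P4HA2 stayed near 79.2% to 20.8%.

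The other genes of collagen modification were described from lists of their own. The counts of each list are to be read beside the 26.5% lower and 24.9% higher of all tested genes. Of 13 chaperones and hydroxylase partners, 12 were tested, 7 were called lower, 1 was called higher, and the median log2 fold change was -0.72. P3H3 and P3H4, which work with PLOD1 on helical lysines, fell from 72.1 to 17.4 CPM (log2 fold change -2.05, edgeR adjusted p = 2.44e-24) and from 76.3 to 33.1 CPM (-1.20, adjusted p = 4.54e-19). FKBP10, a chaperone that assists PLOD2, fell from 289 to 173 CPM (log2 fold change -0.74, edgeR adjusted p = 3.67e-18). The collagen chaperone SERPINH1 had a log2 fold change of 0.14 and was not called, nor were CRTAP (0.14) and PPIB (-0.02), which form a complex with P3H1 for prolyl 3-hydroxylation. P3H1, the enzyme of that complex, fell by 0.77 on the log2 scale (edgeR adjusted p = 4.87e-15), and the related P3H2 fell by 0.88 (adjusted p = 8.11e-17). COLGALT2, a collagen galactosyltransferase, was too low to be tested. TMEM38B, an ion channel of the endoplasmic reticulum, was the gene that rose, with a log2 fold change of 1.20 (edgeR adjusted p = 4.31e-13).

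Of 8 proteases and enhancers that process procollagen or the LOX proenzyme, 7 were tested, 3 were called lower and 2 higher, with a median of -0.21. BMP1, which cleaves the LOX proenzyme, stood at 40.2 CPM in T24 and 49.3 CPM in T24R2. Its log2 fold change of 0.30 (edgeR adjusted p = 8.79e-05) was under the fold needed for a call. PCOLCE2, an enhancer of procollagen cleavage, fell from 4.69 CPM to 0 counts in every T24R2 library, which is at least 17.0-fold lower when 3 counts per library are taken as the floor. TLL1, a relative of BMP1, had 11 to 25 counts in T24 libraries and at most 1 in a T24R2 library and was called lower (edgeR adjusted p = 3.99e-10). TLL2, another relative, was called higher, from a mean of 2.24 to 4.78 CPM (log2 fold change 1.08, edgeR adjusted p = 6.29e-05). ADAMTS2, which removes the amino-terminal propeptide of collagen, rose by 2.88 on the log2 scale (edgeR adjusted p = 7.98e-08) from a mean of 0.277 to 2.13 CPM, while ADAMTS3 fell by 1.60 (adjusted p = 6.66e-06).

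Of 9 genes for copper supply and scaffold proteins, 7 were tested, 2 were lower and 3 higher, with a median of -0.22. EFEMP2, which brings LOX to elastin precursors, fell from 74.4 ± 7.72 to 8.08 ± 0.615 CPM (log2 fold change -3.20, edgeR adjusted p = 1.3e-29). FBN1, the fibrillin of microfibrils, fell by 1.45 on the log2 scale (edgeR adjusted p = 1.46e-26). FN1, a matrix protein that binds LOX, rose from 8044 ± 654 to 16340 ± 1212 CPM (log2 fold change 1.02, edgeR adjusted p = 4.71e-22). ATP7A, which loads copper onto secreted enzymes, rose from 12.7 ± 1.32 to 26.0 ± 2.43 CPM (log2 fold change 1.03, edgeR adjusted p = 4.46e-12). POSTN, not tested, had 4 to 22 counts in T24 libraries and at most 2 in a T24R2 library. Among the 3 other crosslinking enzymes, TGM2, a transglutaminase, fell from 1910 to 638 CPM (log2 fold change -1.58, edgeR adjusted p = 4.68e-30), PXDN, which crosslinks collagen IV, was not called at 0.02, and the other gene was not tested.

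Of 14 substrate genes, 7 were tested, 3 were called lower and 1 higher, and the median was -0.12, or 0.04 without scaling. With any T24 library or T24R2 replicate 4 left out, 8 were tested and 2 were called higher. The paired chains of the basement membrane collagen, COL4A1 and COL4A2, fell from 442 to 33.9 CPM (log2 fold change -3.70, edgeR adjusted p = 1.18e-38) and from 990 to 86.3 CPM (-3.52, adjusted p = 4.23e-40). COL1A1 fell from 6.43 to 1.02 CPM (log2 fold change -2.65, edgeR adjusted p = 4.86e-12), and COL1A2 and COL3A1 had 3 counts or fewer in every library. The abundant collagen genes COL5A2, COL6A1 and COL6A2 were not called, at 0.06, -0.12 and 0.04. COL6A3 rose by 1.97 on the log2 scale (edgeR adjusted p = 9.42e-05) from a low level, COL5A3 had at most 1 count in a T24 library and 4 to 15 in T24R2 libraries, and COL5A1 and the elastin gene ELN were near the floor in both lines.

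**Figure D4:**
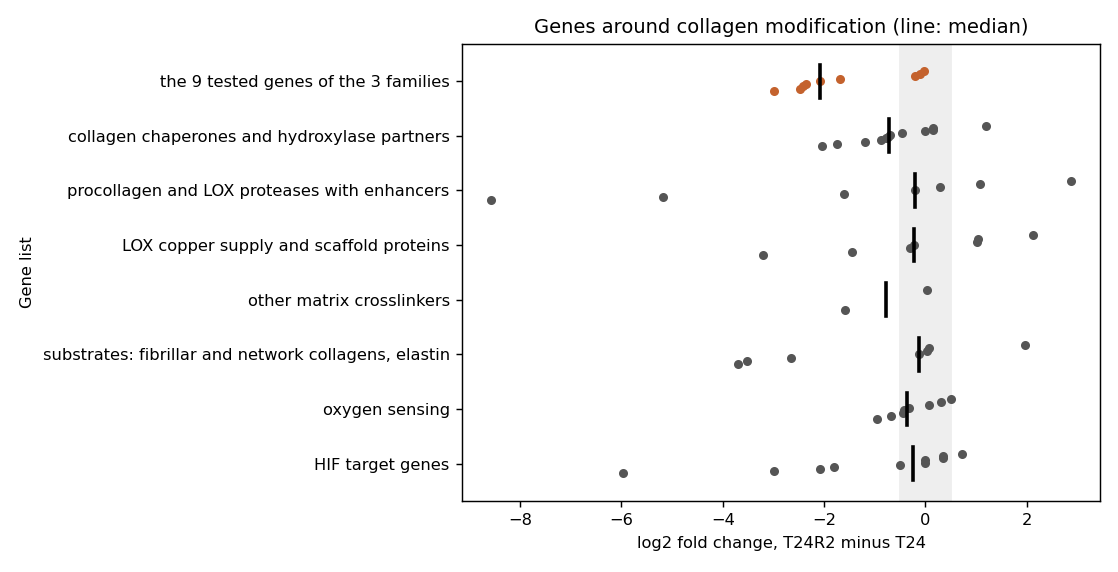
Log2 fold changes of T24R2 minus T24 for each tested gene of the lists around the enzymes, with the 9 tested genes of the 3 families on top and a mark for each list's median. The 9 genes have a median of -2.09, the chaperones and partners -0.72, and the substrates -0.12.

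Because the hydroxylases use oxygen and several of the enzyme genes are textbook HIF targets, genes of oxygen sensing and other HIF targets were set beside them. Regulation by HIF was not tested. Of 8 oxygen-sensing genes, 2 were lower and 1 higher, with a median of -0.37. Of all tested genes, 26.5% were lower and 24.9% higher, so the share called lower was near that of all genes. HIF1A and EPAS1, which encode the oxygen-regulated HIF subunits, stood at -0.42 (edgeR adjusted p = 2.24e-11) and -0.44 (adjusted p = 4.42e-09). Both were lower but under the fold needed for a call. HIF1AN and EGLN3, hydroxylases that act on HIF, fell by 0.67 (edgeR adjusted p = 5.48e-15) and by 0.95 (adjusted p = 0.00267) on the log2 scale. EGLN3 was low, at a mean of 3.06 CPM in T24 and 1.59 CPM in T24R2. Its T24 mean was raised by replicate 2, at 5.46 CPM where the other T24 libraries held 2.28 to 2.62. The rise of EGLN1 rested on a value at the fold threshold, 0.50. The call was lost with another scaling in edgeR (RLE size factors), with DESeq2, with limma-voom and with a replicate block. It was also lost without T24 replicate 1, 3, 4 or 5 or T24R2 replicate 2 or 4. Of 10 HIF targets, 5 were lower and 1 higher, with a median of -0.26. Without scaling beyond the library total, 4 were lower and 2 higher. PGK1, of glycolysis, lay at the fold threshold (-0.50), and 4 were lower with upper-quartile scaling, limma-voom or a replicate block and without T24 replicate 2 or 5 or T24R2 replicate 1, 3, 4 or 5. CA9, a carbonic anhydrase gene, fell by 5.96 on the log2 scale (edgeR adjusted p = 1.88e-16), from 7.66 to 0.115 CPM. LDHA, of glycolysis, fell from 2081 to 494 CPM (log2 fold change -2.07, edgeR adjusted p = 2.58e-31), and ADM, the adrenomedullin gene, from 81.7 to 10.3 CPM (-2.99, adjusted p = 1.4e-30). BNIP3, of mitochondrial removal, fell by 1.81 (edgeR adjusted p = 5.74e-28) and NDRG1, a stress-responsive gene, rose by 0.73 (adjusted p = 1.37e-17). The targets VEGFA (0.34, edgeR adjusted p = 1.83e-06) and ANKRD37 (0.35, adjusted p = 0.0258) were under the fold needed for a call. SLC2A1 (-0.001) and PDK1 (-0.01) were not called either. Of the 2 ascorbate transporters, 1 was tested, SLC23A2. Its log2 fold change of -0.48 (edgeR adjusted p = 1.08e-09) was under the fold needed for a call, except without T24 replicate 2, where it was called lower.

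Tested genes around each of the 10 were counted as a description, beside the 26.5% lower and 24.9% higher of all tested genes. Genes that share exon bases with one of the 10 were kept among its neighbours, although reads of the shared bases could not be separated by strand. Within 1 Mb of P4HA1, 26 of 42 tested genes were called lower and 3 higher, with a median log2 fold change of -0.62, against -2.35 for P4HA1 itself. Around PLOD3, 23 of 40 were higher and 2 lower, with a median of 0.57, while PLOD3 was not called. Around LOXL4 13 of 19 were lower and the median was -0.66. Near P4HA2 7 of 25 were lower and 7 higher (median -0.01), and near LOXL1 4 of 21 were lower and 8 higher (median 0.44), although both genes fell. LOX had 5 tested neighbours, 2 of them lower, and PLOD2 had 2, 1 of them lower. For PLOD1, with 9 of 25 neighbours lower, the median was -0.14. These values depend on the window for some genes. Within 0.5 Mb of P4HA2, 7 of 15 were lower and 2 higher (median -0.41), and the median around PLOD1 was -0.50 within 0.5 Mb and 0.041 within 2 Mb. The remaining neighbourhoods, of LOXL2 and LOXL3, had medians of -0.14 and 0.26. DNA copy number was not measured here.

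**Figure D5:**
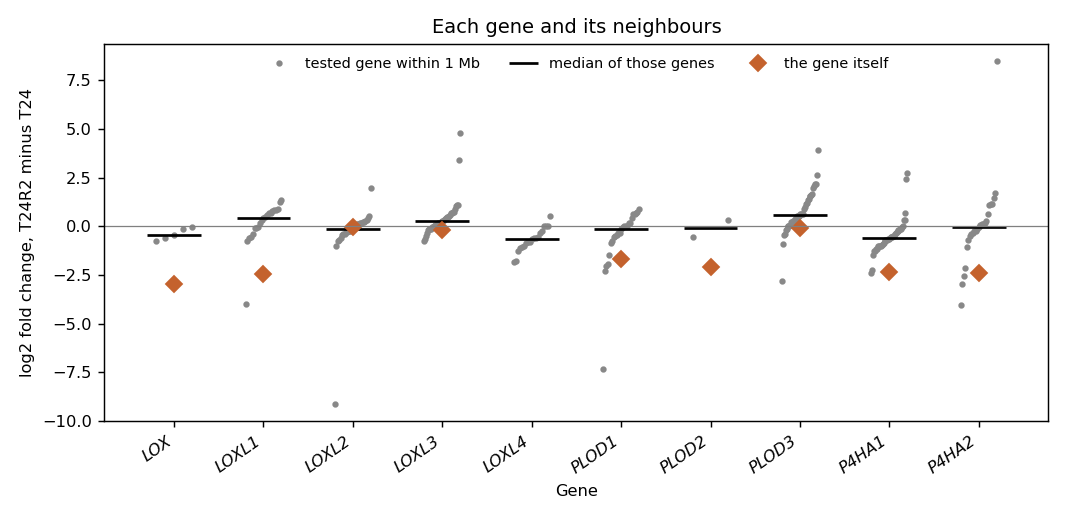
Log2 fold changes of T24R2 minus T24 for tested genes within 1 Mb of each of the 10 genes (small points), their median (line) and the gene itself where it was tested (large mark). P4HA1 lies at -2.35 among neighbours with a median of -0.62, and PLOD3 at -0.11 among neighbours with a median of 0.57.

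Markers were used to check the label of bladder cancer cells. KRT7, KRT8 and KRT18, keratins of simple and urothelial epithelium, were abundant in both lines, with KRT7 at 2236 and 1366 CPM. Of the 14 urothelial and epithelial markers, 8 were tested and all 8 were called lower in T24R2 (7 without scaling beyond the library total), and the summed level went from 4929 to 5661 CPM in T24 libraries to 3003 to 3207 CPM in T24R2 libraries. KRT19 had 2348 to 2676 counts in T24 libraries and at most 3 in a T24R2 library, and EPCAM 27 to 53 and at most 2. The transcription factor gene GATA3 fell by 6.57 on the log2 scale (edgeR adjusted p = 3.6e-25) and PPARG fell by 1.54 (adjusted p = 2.43e-21), and KRT20, CDH1, UPK1B and UPK3A had 3 counts or fewer in every library of both lines. Of the 12 fibroblast markers, 4 were tested and called lower, and the summed level fell from between 189 and 245 CPM to between 27.2 and 33.1 CPM, most of it from TAGLN, a contractile protein gene that went from 209 to 27.7 CPM. ACTA2, of smooth muscle and activated fibroblasts, fell by 3.53 (edgeR adjusted p = 1.43e-12). PDGFRB, a growth factor receptor gene of fibroblasts and pericytes, had 23 to 38 counts in T24 libraries and 0 in every T24R2 library, at least 12.4-fold lower with 3 counts per library as the floor. THY1 had 4 to 8 counts and then 0, and PDGFRA 0 counts in T24 and 1 to 7 in T24R2 libraries. DCN, LUM, FAP, COL1A2 and COL3A1 had 3 counts or fewer in every library of both lines. Both tested endothelial markers of 4 fell, with CDH5 from 238 to 0.558 CPM, PECAM1 from 5.35 to 1.17 CPM and the summed level from between 225 and 277 CPM to between 1.60 and 2.49 CPM. None of the 5 immune markers was tested, and their sum reached at most 2.78 CPM. Among them PTPRC had at most 1 count in a T24 library and 2 to 10 in T24R2 libraries. Each tested epithelial, fibroblast and endothelial marker was called lower in T24R2, where 26.5% of all tested genes were. Some, such as KRT19, EPCAM and PDGFRB, passed the low-count filter only through T24, so a fall was the only direction open to them. PDGFRA and KRT5, with counts only in T24R2, were not tested. These calls are therefore a description of the lines. The part of the marker genes in the result was not tested.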

How the data were processed

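The authors aligned RNA-seq reads of T24 and T24R2 (5 libraries each) to hg38 with STAR 2.7.0 and SAMtools 1.10 and counted fragments on GENCODE release 39 genes with featureCounts 2.0.1, strand option 1. The deposited values are raw counts per gene and library, without scaling. Uniquely mapped reads were kept and duplicates removed, which may lower abundant transcripts. Libraries were made with a NEBNext Ultra II RNA kit. Groups came from the sample titles.

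Counts were fitted in R 4.3.3 with edgeR 4.0.16 (default filterByExpr, TMM scaling, glmQLFit, glmQLFTest) over all 16181 tested genes with Benjamini-Hochberg adjustment, using the fold and p limits of the study's methods. DESeq2 1.42.0 and limma-voom (limma 3.58.1) were alternatives, as were other scalings, filters and thresholds, a replicate block, removal of opposite-strand counts and leaving out each library. Levels between genes were compared per kb of exon. Permutation tests used SciPy 1.17.1, and figures matplotlib 3.10.9. In simulated counts, edgeR called 87 of 100 genes changed by 1 on the log2 scale, 93 of 100 changed by 2, and 5 unchanged genes. Far fewer genes were changed there than were called in these data, so the simulation does not test the scaling. Floors of 3 counts and intervals cover counting error or library spread only. With about 9257843 counts or more per library, the 95% intervals of the called genes were widest for LOXL1.

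The 10 genes, the lists around them and their markers were chosen with earlier results of these data known. Named genes were all 10, up to 4 called members of each list with the smallest adjusted p, list members at the floor in a line, and genes sharing exon bases with the 10. Further list members were named after their values were seen. Genes ranked by correlation with LOX and PLOD1 are not reported, because the libraries form 2 separate clusters. Libraries of the same line were distinct, as chi-square over degrees of freedom was 1.99 to 6.51 in the 20 pairs. Gene names came from the tables and a gene name table, which matched 61369 of 61533 genes. Promoter sequences are from RefSeq, GRCh38.p14.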

Additional observations from a re-analysis of the deposited data

Results flagged for a closer look

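In 10 of 92 groups of 5 libraries, over 53 genes, 1 library lay further from the rest than Dixon's limit of 0.710 of the group's range. Chance gives about 1 in 20 groups, or 4.60. LOXL2 in T24 replicate 4 was 959.46 CPM, where the rest of that line lay at 882 to 892, and its log2 fold change without that library was -0.01. PLOD3 in the same library was 82.27 CPM against 91.4 to 92.5, and without it the log2 fold change was -0.14 (edgeR adjusted p = 0.0233), still under the fold for a call. PLOD3 was also past the p limit, at -0.13, without T24R2 replicate 1 (edgeR adjusted p = 0.0363) or T24R2 replicate 3 (adjusted p = 0.0304). PLOD2 in T24R2 replicate 1 was 108.95 CPM against 122 to 127.

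Among the surrounding genes, FN1 was 9182.67 CPM in T24 replicate 4 (others 7573 to 7973) and 18438.44 CPM in T24R2 replicate 3 (others 15356 to 16218). ATP7A was 10.37 CPM in T24 replicate 3 (others 13.0 to 13.6), and COL4A2 936.99 CPM in that library (others 998 to 1009). ELN was 0.75 CPM in T24 replicate 4 (others up to 0.215), EGLN3 5.46 CPM in T24 replicate 2 (others 2.28 to 2.62), and KRT5 0.57 CPM in T24R2 replicate 3, with 0 in the others.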

How the results depend on the processing

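Of the 3 families 6 genes were called lower under the alternatives run, each left-out library included, except 5 with a mean of at least 100 counts, where LOXL1 was not tested, and 7 with no fold minimum, which added LOXL3 (-0.20). Their log2 fold changes ranged from -3.05 to -2.82 for LOX, -2.67 to -2.30 for LOXL1, -2.38 to -2.19 for P4HA1, -2.43 to -2.25 for P4HA2, -1.70 to -1.52 for PLOD1 and -2.14 to -1.92 for PLOD2. The count called higher moved from 0 to 1 (LOXL4) without a count filter. LOXL2 changed sign without scaling (0.13) and with upper-quartile scaling (0.042), and PLOD3 without scaling (0.057), where the median of all genes moved to 0.18. With a mean of at least 100 counts, 4991 genes were called, 2350 higher and 2641 lower, since fewer genes pass. With no fold minimum 6128 were higher, and at an absolute log2 fold change over 1, 4211 were called, 1918 higher and 2293 lower. Leaving out a library gave 8398 to 8466 called genes.

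Replicate numbers did not pair the samples: deviations of same-numbered libraries correlated at 0.00592 to 0.0634, and 1 of 5 T24 libraries matched its own number best. A replicate block gave 8240 called genes, with 6 genes of the families lower.

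Shares within families depend on the gene length used. With the longest coding transcript, LOXL2 held 89.0% and 96.5% in T24 and T24R2, PLOD3 13.0% and 33.8%, P4HA1 64.1% and 65.1%, and PLOD2 30.7% in T24R2. LOXL4 and other genes of few counts are limited by depth.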

Other observations

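Genes that share exon bases with the enzymes on the opposite strand were called in both directions or not called, although reads of the shared bases could not be separated by strand. P4HA2-AS1, whose exons share 548 bases with P4HA2, had a log2 fold change of -2.54 (edgeR adjusted p = 1.53e-14), and P4HA2 was also lower. LOXL1-AS1, which shares 335 bases with LOXL1, was lower at -0.78 (edgeR adjusted p = 1.43e-05). LOXL2-AS1, sharing 178 bases with LOXL2, had 0.15 and was not called, nor was LOXL2. ZNHIT1, sharing 102 bases with PLOD3, was higher at 0.91 (edgeR adjusted p = 2.09e-17), while PLOD3 was not called.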
